A study of Arabidopsis thaliana with 4 samples.

Results

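The mRNAs described here carried a higher signal in RNA from large polysomes than in total RNA both in hypoxic and in non-stressed seedlings. RNA of Arabidopsis thaliana seedlings (wild type, accession Ler), 7 d old and kept in low light, was hybridised to Affymetrix ATH1 arrays, on which short probes are combined into 1 probe set for each transcript or group of near-identical transcripts. There were 4 groups with 1 array each: large-polysome RNA after 12 h of hypoxia, total RNA after 12 h of hypoxia, large-polysome RNA of seedlings held for 12 h in low light without stress, and total RNA of non-stressed seedlings, for which the labels give no time. All 4 groups share the accession, the age and the low light, and no mutant or transgene was used. Members were chosen by the measured ratio of polysomal to total signal: a probe set was a member when its deposited intensity was above 140 on all 4 arrays and its polysomal over total ratio was at least 1.5 in hypoxia and at least 1.5 without stress.

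Of 22746 probe sets that were not controls, 11150 passed the intensity floor on all 4 arrays, and 6075 of these were paired with a gene in the annotation used. The ratio limits were met by 250 probe sets, of which 165 were annotated. From these, 11 for cytosolic ribosomal proteins, 3 for lipid transfer proteins, 1 for a histone H2B of the HTB series and 0 for organelle-encoded genes were excluded, which left 150 members. Among the members, 137 were paired with 1 gene each, all different, and 13 with several near-identical genes, which are described without single gene names. The other 85 probe sets had no gene name here and could not be screened for the excluded classes.

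An mRNA that is being translated is bound by several ribosomes in a row, and these polysomes can be separated from free mRNA by their weight. The polysomal over total ratio sets the large-polysome signal of an mRNA against its total signal, on arrays scaled to a common mean, and it does not measure how much protein is made. When oxygen is short, plant cells save energy by initiating translation on fewer mRNAs, while mRNAs for fermentation and stress protection keep or gain ribosomes.

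Arrays differed little in range, with between 54.5% and 59.8% of probe sets above 140. The 5 hypoxia markers, among them the pyruvate decarboxylase gene PDC2, had summed intensities of 34041 in polysomal and 30411 in total RNA of hypoxic seedlings, against 2208 in polysomal and 2202 in total RNA of non-stressed seedlings. Shoot markers were represented by 3 of 10 genes, with sums between 11221 and 14035 on the 4 arrays, and root markers by 4 of 7 genes, with sums between 14427 and 23056 that came mostly from PYK10, at 12721 to 19221. EXPA7, a root hair marker, was below 140 on both arrays of hypoxic seedlings. In such bulk samples fewer cells of a type and less RNA per cell cannot be told apart. With 1 array per group there is no spread between samples, so no difference below has a replicate check and none was tested. Probe error can be gauged from 32 pairs of probe sets that target 1 gene: their log2 polysomal over total ratios lay a median of 0.43 apart in hypoxia and 0.47 apart without stress, and the 95th percentiles were 1.23 and 1.58.

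The ratios that chose the members are given as a description. Of the annotated probe sets, 8.1% reached a ratio of 1.5 in hypoxia, 10.7% reached it without stress and 2.72% reached it in both. The 165 probe sets that did so in both were 33.5% of the 492 that did so in hypoxia and 25.4% of the 650 that did so without stress, so most mRNAs rich on polysomes in one condition missed the limit in the other. Members had a median ratio of 1.70 in hypoxia, with a range of 1.501 to 3.39, and a median of 1.73 without stress, with a range of 1.502 to 3.91. The median over all annotated probe sets was 0.99 in either condition.

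**Figure D1:**
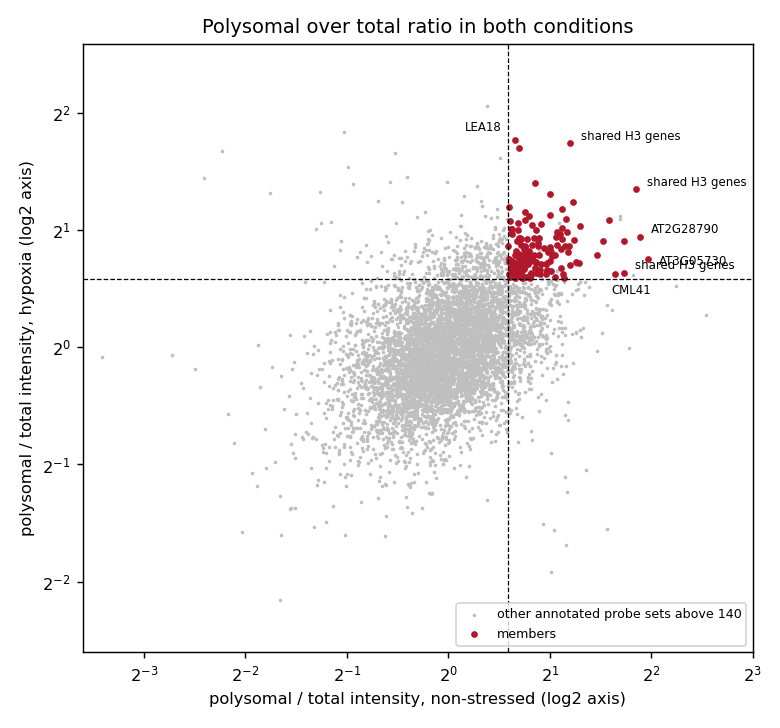
Each point is an annotated probe set above 140 on all 4 arrays, placed by its polysomal over total intensity ratio in hypoxia (vertical, log2 axis) and without stress (horizontal, log2 axis), with 1 array behind each intensity. The 150 members in red lie right of and above the dashed lines at 1.5, and the grey points in the same corner are the 15 excluded probe sets. No member reached a ratio of 3 in both conditions: LEA18 had 3.39 in hypoxia and AT3G05730 had 3.91 without stress.

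A ratio of 2 was reached by 24 members in hypoxia, by 38 without stress and by 8 in both, while 96 members had both ratios between 1.5 and 2. Members were of ordinary abundance in total RNA, with median intensities of 486 in hypoxia and 552 without stress, against 533 and 545 over all annotated probe sets. In polysomal RNA their medians were 896 in hypoxia and 1076 without stress, against 524 and 547. The limit itself fell where many probe sets lie: just inside it were AT5G61310, AT4G24830 and AT2G24860, whose lower ratios were 1.501, 1.502 and 1.503, and just outside were AT5G61330, COS1 and AT1G77260, with 1.498, 1.498 and 1.497. The 3' over 5' signal ratios of the control transcripts were higher on the polysomal arrays for actin, at 2.15 in hypoxia and 2.45 without stress, against 1.22 and 1.39 in total RNA. A second actin control gave 7.34 in hypoxia and 10.9 without stress in polysomal RNA, against 5.53 and 5.46 in total RNA. For ubiquitin one control gave 1.24 and 2.02 in polysomal RNA, against 1.04 and 1.49 in total RNA, and the other gave 1.94 and 1.92, against 1.13 and 1.29. For GAPDH the polysomal values were 1.29 and 1.11 on one control and 0.80 and 1.12 on the other, against 1.12 and 0.958, and 0.75 and 1.06, in total RNA. All 6 controls were thus higher on the polysomal array in either condition, and the part of this in the ratios was not tested.

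Among the members with 1 gene, the gene with the highest lower ratio was AT2G41090, which encodes a calmodulin-like calcium-binding protein. In hypoxia its intensity was 2097 in polysomal and 892 in total RNA, and without stress it was 4689 in polysomal and 2007 in total RNA. Its ratio was 2.35 in hypoxia and 2.34 without stress, while the signal was more than 2-fold lower in hypoxia in both fractions. AT5G18600, a small glutaredoxin of the plant-specific CC type, had 848 in polysomal and 399 in total RNA in hypoxia, against 1756 in polysomal and 586 in total RNA without stress, which gave ratios of 2.12 in hypoxia and 2.99 without stress. AT1G29250, an Alba domain protein that binds nucleic acids, had 2038 in polysomal and 999 in total RNA in hypoxia, against 4732 in polysomal and 1929 in total RNA without stress.

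AT5G22580, a stress-responsive A/B barrel domain protein, also belonged to this leading group, with 2056 in polysomal and 942 in total RNA in hypoxia, against 4132 in polysomal and 2069 in total RNA without stress. SNF7.2, a subunit of the ESCRT-III complex that pinches off membranes at the endosome, had 1478 in polysomal and 599 in total RNA in hypoxia, against 771 in polysomal and 386 in total RNA without stress. Of these 5 genes only SNF7.2 had more signal in hypoxia in both fractions. Other named genes of the 15 with the highest lower ratio were the oleosin gene AT3G01570, which encodes a coat protein of oil bodies, AT3G47070 for a thylakoid phosphoprotein, the glutathione S-transferase gene GSTU20, the thaumatin family gene AT2G28790, AT5G52750 for a protein with a heavy-metal-associated domain, and the SWIB domain gene AT2G35605.

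No role is stated for the remaining 4 of the 15. AT1G71430 had 330.3 in polysomal and 146 in total RNA in hypoxia, against 444 in polysomal and 204 in total RNA without stress. AT4G14020 had 616 in polysomal and 289 in total RNA in hypoxia, against 751 in polysomal and 337 in total RNA without stress. Both kept a polysomal signal more than 2-fold above the total signal in either condition, although their total RNA signals were below the members' median. AT1G68680 and AT2G27730 had ratios of 2.03 and 2.07 in hypoxia, against 2.18 and 1.88 without stress.

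**Figure D2:**
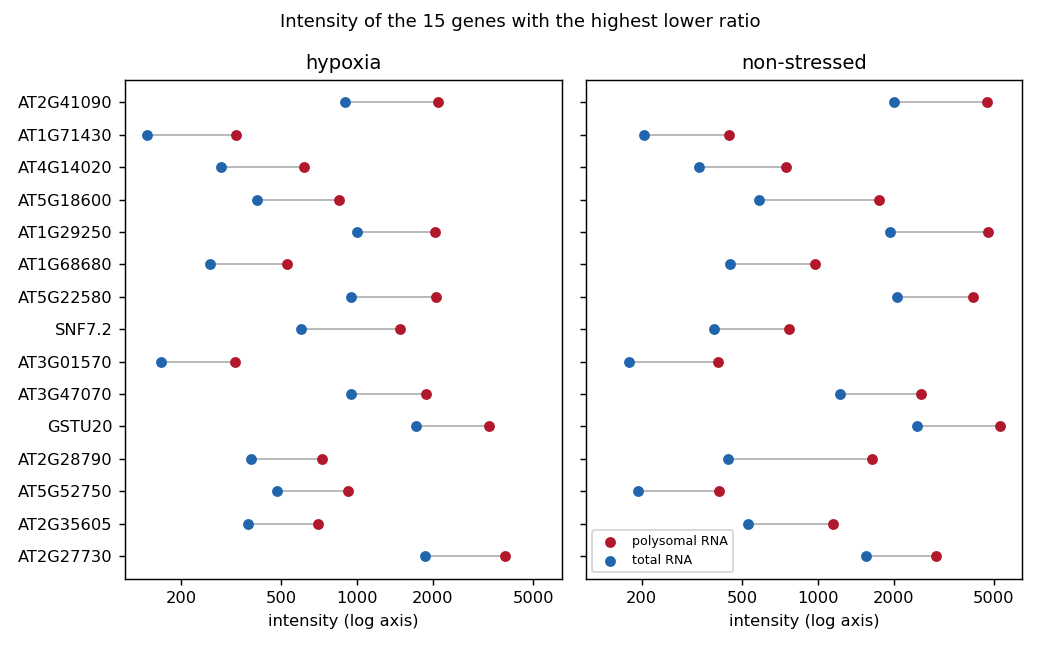
Intensity (log axis) of the 15 single-gene members with the highest lower ratio, ordered from AT2G41090 at the top, in polysomal RNA (red) and total RNA (blue) of hypoxic seedlings (left) and non-stressed seedlings (right), 1 array per point. The red point lies right of the blue one in every row, as the rule requires, and total RNA signals run from 146 for AT1G71430 in hypoxia to 2469 for GSTU20 without stress.

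To describe functions, members were placed in 10 groups by known roles, after the members were known, so the group sizes carry no test of over-representation. A role could be stated for 101 members and was not stated for 49. The groups held 20 members for stress and redox, 13 for chromatin, 12 for RNA polymerase, splicing and RNA binding, 12 for protein turnover, folding and membrane traffic, 10 for ribosome assembly and translation, 9 for mitochondrial respiration, 8 for metabolism, plastid and cytoskeleton, 6 for organellar ribosomal proteins, 6 for secreted and defence proteins and 5 for calcium.

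**Figure D3:**
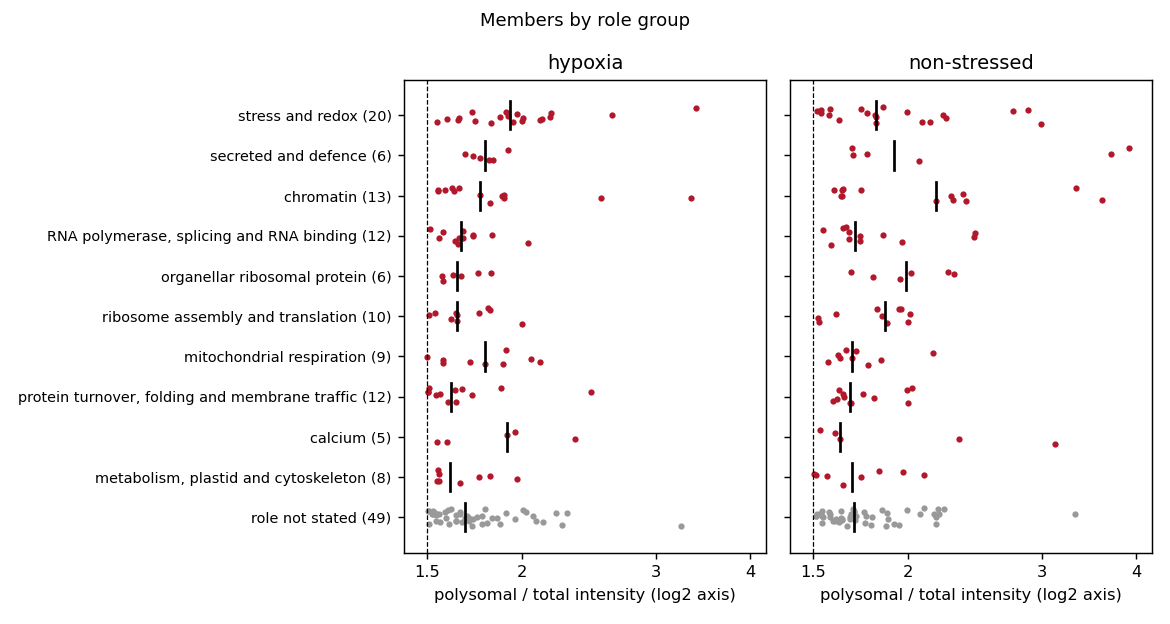
Polysomal over total ratio (log2 axis) of every member in hypoxia (left) and without stress (right), by role group with its number of members; each point is 1 probe set, black bars are medians and the dashed line is the limit of 1.5. In hypoxia the highest median is 1.93 for stress and redox and the highest point is LEA18 at 3.39; without stress the highest median is 2.18 for chromatin and the highest point is AT3G05730 at 3.91.

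Chromatin members included probe sets for the histones H3 and H4, which package newly made DNA, and for the linker histone H1, which binds between nucleosomes. Of 3 member probe sets shared by 5 histone H3 genes, the one with the highest lower ratio had 474 in polysomal and 186 in total RNA in hypoxia, against 2681 in polysomal and 744 in total RNA without stress. A second had 938 in polysomal and 281 in total RNA in hypoxia, against 2756 in polysomal and 1201 in total RNA without stress. The remaining one had 281 in polysomal and 181 in total RNA in hypoxia, against 1347 in polysomal and 404 in total RNA without stress. All 3 were at least 2-fold lower in hypoxia in both fractions, and their ratios lay between 1.55 and 3.34 in hypoxia and between 2.29 and 3.60 without stress.

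The probe sets shared by 8 histone H4 genes varied among themselves. One member had 4649 in polysomal and 2557 in total RNA in hypoxia, against 7007 in polysomal and 3069.8 in total RNA without stress, and the other had 1230.3 in polysomal and 745 in total RNA in hypoxia, against 3339 in polysomal and 1401 in total RNA without stress. Another H4 probe set above the floor was no member, with a ratio of 2.16 in hypoxia and 1.398 without stress, and 2 more H4 and 2 more H3 probe sets fell below 140 on at least 1 array. These probe sets share near-identical targets, so they are not separate genes or replicates. The H1 genes AT2G30620 and AT1G06760 had ratios of 1.58 and 1.55 in hypoxia, against 1.60 and 1.63 without stress. HIS1-3, the other measured H1 gene, had a ratio of 1.63 in hypoxia and 1.31 without stress.

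Other chromatin members were the SWIB domain genes AT4G34290 and AT2G35605, relatives of a subunit of chromatin-remodelling complexes, 3xHMG-box2, a mitotic chromosome-binding protein, and AT5G28040 and AT4G25210, which belong to the GeBP family of DNA-binding proteins. AT4G34290 had 658 in polysomal and 349 in total RNA in hypoxia, against 1652 in polysomal and 699 in total RNA without stress. Over the 13 chromatin members the median log2 ratio of hypoxia over non-stressed was -0.63 in total and -0.72 in polysomal RNA, and 10 of 13 were below 0 in either fraction, beside 50.6% of annotated probe sets in total and 52.1% in polysomal RNA. Without the 5 H3 and H4 probe sets, which share targets, 5 of 8 were below 0 in either fraction.

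Members of the transcription and splicing machinery were subunits shared by nuclear RNA polymerases (NRPB12 and NRPB6A), Sm and Sm-like proteins of the spliceosome (AT4G30330 for SmE, AT1G20580 for SmD3 and LSM6B), AT5G12190, a relative of the SF3b p14 subunit, and AT1G06450 of the CAF1 family of mRNA deadenylases. AT4G30330 had 569.6 in polysomal and 346 in total RNA in hypoxia, against 829 in polysomal and 339 in total RNA without stress, so its ratio was 1.65 in hypoxia and 2.44 without stress. LSM6B, with 677 in polysomal and 435 in total RNA in hypoxia against 532 in polysomal and 336 in total RNA without stress, had nearly equal ratios of 1.56 and 1.58. Of 12 measured Sm and LSM probe sets, not all for separate genes, 3 met the limit in both conditions, beside 2.72% of all annotated probe sets. With these 3 included, 9 had a ratio above 1 in both, beside 31.5%. LSM6A, the closest relative of LSM6B by name, had a ratio of 1.03 in hypoxia and 1.46 without stress.

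Mitochondrial members included AT2G02050 and AT4G16450 of complex I, the cytochrome c oxidase subunit genes AT1G80230 and AT5G61310, AT2G19680 for subunit g of the ATP synthase, and CYTC-2, which carries electrons between complexes III and IV. CYTC-2 had 2607 in polysomal and 1457 in total RNA in hypoxia, against 1924 in polysomal and 892 in total RNA without stress. AT4G16450 had 4366 in polysomal and 2775 in total RNA in hypoxia, against 4901 in polysomal and 2960.3 in total RNA without stress. Over 51 measured probe sets for nuclear-encoded respiratory subunits and cytochrome c, the median ratio was 1.27 in either condition. Of these, 6 met the limit in both, beside 2.72% of annotated probe sets, and 38 were above 1 in both, beside 31.5%. The members lay at the upper end of this family because of the rule. The family median, which includes them, was above the 0.99 of all annotated probe sets. CYTC-1, the other cytochrome c gene, had a ratio of 1.30 in hypoxia and 1.16 without stress.

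All 6 organellar ribosomal protein probe sets, which serve the ribosomes of mitochondria or plastids and are encoded in the nucleus, had signals less than 2-fold apart between the conditions in both fractions. Most annotated probe sets did so too in a given fraction. In total RNA 5.7% of them were at least 2-fold higher in hypoxia and 7.8% lower, and in polysomal RNA 8.44% and 9.14%. AT2G18400 had 568 in polysomal and 349.5 in total RNA in hypoxia, against 977 in polysomal and 424.5 in total RNA without stress. AT5G46160 had 1630.3 in polysomal and 1039 in total RNA in hypoxia, against 1733 in polysomal and 886 in total RNA without stress. AT1G26740 and AT3G59650 had ratios of 1.57 and 1.82 in hypoxia, against 2.02 and 1.68 without stress. The ratio, which the rule used, was lower in hypoxia in 5 of the 6, beside 62.0% of members and 50.98% of annotated probe sets.

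Ribosome assembly and translation were represented by AT1G43860 for an SBDS protein of 60S maturation, AT5G15750 and AT3G22660 for relatives of the yeast factors IMP3 and EBP2, AT5G08180, an NHP2-type protein of small nucleolar ribonucleoproteins, AT2G04520 for initiation factor eIF1A, AT5G11900 and AT1G71350 of the SUI1 family, and AT4G10480 for an alpha subunit of the nascent polypeptide-associated complex, which meets new proteins at the ribosome. AT2G04520 had 4308 in polysomal and 2154 in total RNA in hypoxia, against 4869 in polysomal and 3028 in total RNA without stress. AT4G10480 had 2405 in polysomal and 1463 in total RNA in hypoxia, against 5239 in polysomal and 2673 in total RNA without stress. In polysomal RNA 9 of the 10 had less signal in hypoxia, beside 66.0% of members and 52.1% of annotated probe sets. AT5G08180 was the lowest of the 10, with log2 ratios of hypoxia over non-stressed of -1.34 in total and -1.36 in polysomal RNA.

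For protein turnover, folding and membrane traffic, members included AT1G67250 for the proteasome maturation factor UMP1, AT1G45000 for an RPT4-type ATPase of the proteasome, ATG8D, a ubiquitin-like protein of autophagosomes, the cyclophilin gene AT1G01940, AT2G37975 of the Yos1 family, and SCPL34, a serine carboxypeptidase-like protein. One of 2 probe sets shared by the same 2 genes for the gamma subunit of the Sec61 translocon had 2014 in polysomal and 1172 in total RNA in hypoxia, against 5016 in polysomal and 2474.5 in total RNA without stress. The other had 2722 in polysomal and 1452 in total RNA in hypoxia, against 4416 in polysomal and 2772 in total RNA without stress. Signals of AT1G01940 went the other way, at 1003 in polysomal and 665 in total RNA in hypoxia against 574 in polysomal and 348 in total RNA without stress.

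SNF7.2 was compared with its measured ESCRT relatives, of which 9 passed the floor. A ratio of 1.5 was reached by 6 of the 9 in hypoxia, beside 8.1% of annotated probe sets, and by SNF7.2 alone without stress, beside 10.7%. VPS60.2, VPS60.1 and SNF7.1 had ratios of 2.17, 1.81 and 1.74 in hypoxia, against 1.29, 1.16 and 1.12 without stress. For ATG8 genes, 3 of 9 reached the limit in hypoxia and 2 of 9 without stress, and ATG8D, at 1.56 in hypoxia and 1.61 without stress, was the single one to do so in both, beside 2.72% of annotated probe sets.

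**Figure D4:**
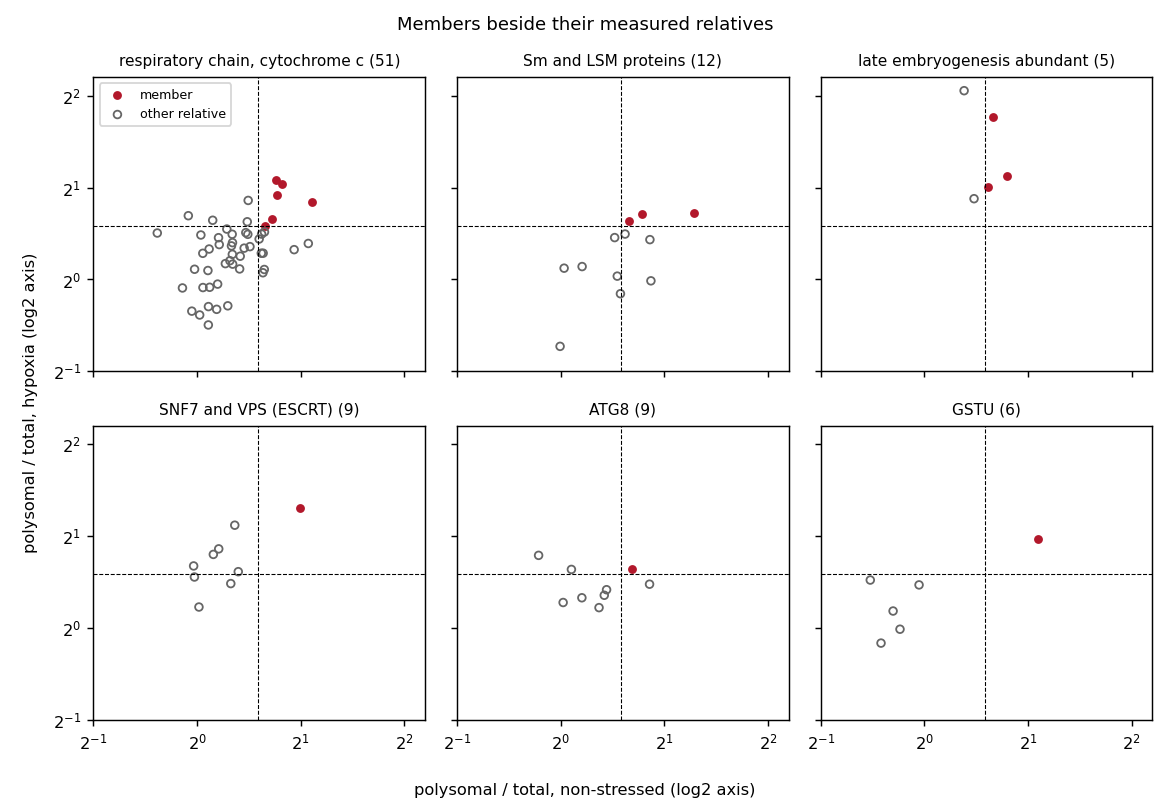
Polysomal over total ratio in hypoxia (vertical) and without stress (horizontal), both on log2 axes, for 6 families with the number of measured probe sets in each; members are filled red, relatives that are no members are open, and dashed lines mark 1.5. GSTU20 stands apart from 5 GSTU relatives that lie below 1 without stress, while respiratory chain members grade into relatives just outside the limits.

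GSTU20, a glutathione S-transferase of the tau class that conjugates glutathione to reactive compounds, had 3341.5 in polysomal and 1714 in total RNA in hypoxia, against 5282 in polysomal and 2469 in total RNA without stress. Its ratio of 1.95 in hypoxia and 2.14 without stress contrasted with GSTU25, at 1.38 and 0.97, and with GSTU22, at 1.43 and 0.70. AT5G18600 was the only 1 of 3 measured CC-type glutaredoxins to reach the limit: AT4G15680 had ratios of 1.19 in hypoxia and 1.23 without stress, and AT2G30540 had 1.19 and 1.11. Among 5 Alba proteins AT1G29250 was the single member, and AT1G76010 had ratios of 0.58 in hypoxia and 0.66 without stress. Relatives within these 3 families thus differed widely in ratio, with 1 array behind each intensity.

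Late embryogenesis abundant proteins protect cells during drying, and 3 of their genes were members. LEA18 had 1039 in polysomal and 306 in total RNA in hypoxia, against 502 in polysomal and 318 in total RNA without stress. AT3G17520 had 778 in polysomal and 387.5 in total RNA in hypoxia, against 431 in polysomal and 281 in total RNA without stress. AT3G15670 had 326.5 in polysomal and 150.0 in total RNA in hypoxia, against 344 in polysomal and 198 in total RNA without stress. All 5 measured LEA genes reached 1.5 in hypoxia, beside 8.1% of annotated probe sets, and the 3 members did so by the rule. LEA4-5, no member, had a ratio of 4.15 in hypoxia and 1.30 without stress. In hypoxia its total RNA signal was 147.1 and that of AT3G15670 was 150.0, both close to the intensity floor. LEA18, AT3G17520 and AtLEA4-1 lay farther above the floor in total RNA of hypoxic seedlings, at 306, 387.5 and 228.1.

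Further stress and redox members were SRX, the sulfiredoxin that repairs oxidised peroxiredoxin, SAPX, a stromal ascorbate peroxidase, the glyoxalase family gene AT5G48480, the universal stress protein family genes AT3G11930 and AT3G53990, and a probe set shared by the cold-induced KIN genes. SRX had 1412 in polysomal and 669 in total RNA in hypoxia, against 896 in polysomal and 589.5 in total RNA without stress. AT3G53990 had 4499 in polysomal and 1710.2 in total RNA in hypoxia, against 3769 in polysomal and 2079.7 in total RNA without stress. Both had a higher ratio in hypoxia, at 2.11 for SRX and 2.63 for AT3G53990, against 1.52 and 1.81 without stress.

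Secreted and defence members included the defensin-like genes AT3G05730 and AT2G43550, the chitinase family gene AT2G43620, the lectin gene AT3G16530, AT5G55180 of glycosyl hydrolase family 17 and the thaumatin family gene AT2G28790. AT3G05730 had 8813 in polysomal and 5241 in total RNA in hypoxia, against 6704 in polysomal and 1714 in total RNA without stress. AT2G28790 had 725 in polysomal and 378 in total RNA in hypoxia, against 1638 in polysomal and 442 in total RNA without stress. Their ratios were 1.68 and 1.92 in hypoxia, against 3.91 and 3.70 without stress, the highest non-stressed ratios of all members. CML41, a calmodulin-like protein, had 259 in polysomal and 168 in total RNA in hypoxia, against 481.5 in polysomal and 154 in total RNA without stress, close to the floor in total RNA.

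The change of association is the log2 polysomal over total ratio in hypoxia minus that without stress, and the rule confines it because both ratios had to be high. Its median over the members was -0.05, beside -0.01 over all annotated probe sets, and 57 members were above 0 and 93 below. Among single-gene members the lowest values were -1.22 for AT3G05730, -1.02 for CML41 and -0.95 for AT2G28790. The highest were 1.10 for LEA18, 0.60 for AT1G28400 and 0.54 for AT3G53990. Between probe sets of the same gene this quantity differed by a median of 0.45 and a 95th percentile of 1.01, so 3 of these 6 values were within that 95th percentile. The 6 were picked as extremes of the single-gene members, so passing that percentile does not set the other values apart from probe error.

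The response to hypoxia compares the conditions within a fraction, which the rule did not use directly, although the same 4 intensities enter both. In total RNA, 13 of 150 members, or 8.67%, were at least 2-fold higher in hypoxia, beside 5.7% of annotated probe sets, and 24, or 16.0%, were at least 2-fold lower, beside 7.8%. In polysomal RNA, 9 members, or 6.0%, were at least 2-fold higher, beside 8.44%, and 26, or 17.3%, were at least 2-fold lower, beside 9.14%. The share of members with lower signal in hypoxia was thus above the background share in both fractions. The median log2 ratio of hypoxia over non-stressed was -0.25 for members and -0.01 for all annotated probe sets in total RNA, and -0.31 and -0.03 in polysomal RNA. Both fractions were 2-fold higher for 8 members, beside 3.75% of annotated probe sets, and both were 2-fold lower for 19, beside 4.66%. The fractions differed in direction at 2-fold for 0 members and for 11 of the 6075 annotated probe sets. The rule confines the distance between the fractions, so this 0 was no test of their agreement. For log2 ratios of hypoxia over non-stressed, pairs of probe sets of 1 gene differed by a median of 0.35 in total and 0.37 in polysomal RNA. With the arrays scaled on spiked controls, the median of these 150 members was 0.06 in total RNA and -0.67 in polysomal RNA, and that of the 6075 annotated probe sets was 0.29 in total RNA and -0.40 in polysomal RNA, so the sign in total RNA depends on the scaling. When members were chosen again under that scaling, 375 probe sets had medians of 0.041 in total and -0.34 in polysomal RNA. The annotated probe sets above the floor had 0.28 in total and -0.39 in polysomal RNA. For that choice the members' median was thus below the background in total RNA, but the lower polysomal signal did not hold. All 4 measured root markers were also lower in total RNA in hypoxia, at -0.44 for PYK10, -1.82 for EXPA18, -1.83 for EXPA7 and -1.63 for AT4G26010. In polysomal RNA they had 0.15, -1.15, -0.62 and -0.29 in that order. The 3 measured shoot markers were lower in total RNA as well, at -0.25 for LHCB4.2, -0.59 for LHCB4.3 and -0.22 for ATPC1. Their polysomal values were 0.26, -0.26 and -0.41 in that order. The part of the root and shoot markers' changes in the members' values was not tested.

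**Figure D5:**
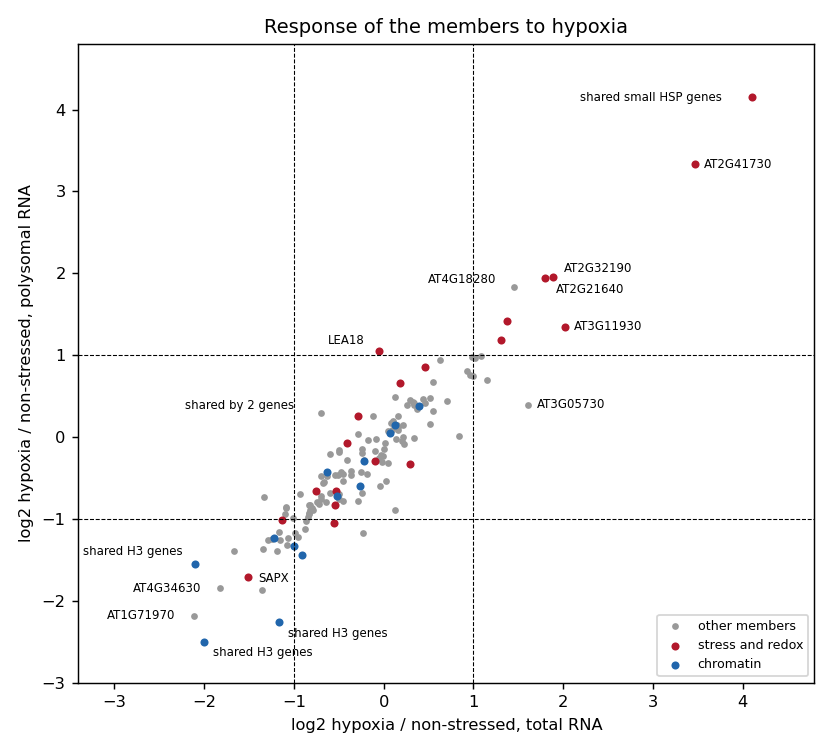
Log2 ratio of hypoxia over non-stressed intensity in total RNA (horizontal) and polysomal RNA (vertical) for the 150 members, 1 array per group, with dashed lines at 2-fold; red marks stress and redox members, blue chromatin members and grey the others. Most members lie along the diagonal, and the rule confines their distance from it. A probe set shared by small heat shock protein genes lies at 4.10 and 4.15, and the shared histone H3 probe sets lie at the lower left.

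Stress and redox members made up 7 of the 13 that were 2-fold higher in total RNA and 8 of the 9 in polysomal RNA. This group held 20 of the 150 members, of which 2 were 2-fold lower in total and 3 in polysomal RNA. Roles were given to members only, after the members were known, and some rest on a known stress response. The counts are therefore a description, with no share over all annotated probe sets to set beside them. A probe set shared by 2 small heat shock protein genes, chaperones that hold unfolded proteins, had 4322 in polysomal and 2715 in total RNA in hypoxia, against 243 in polysomal and 158 in total RNA without stress. AT2G41730 had 9091 in polysomal and 5506 in total RNA in hypoxia, against 903 in polysomal and 497 in total RNA without stress, on a probe set of the type that may cross-hybridise. AT3G11930, a universal stress protein family gene, had 15308 in polysomal and 8895 in total RNA in hypoxia, against 6021 in polysomal and 2186 in total RNA without stress. These were among the brightest members in hypoxia, and their polysomal over total ratios were 1.59, 1.65 and 1.72 in hypoxia, against 1.54, 1.82 and 2.75 without stress.

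AT2G21640, a marker of oxidative stress in plant cells, had 2994.5 in polysomal and 1496 in total RNA in hypoxia, against 780.2 in polysomal and 429 in total RNA without stress. AT2G32190, which encodes a small cysteine-rich transmembrane protein, had 1433 in polysomal and 871 in total RNA in hypoxia, against 370.5 in polysomal and 235 in total RNA without stress. Log2 ratios of hypoxia over non-stressed in total RNA were 1.37 for AT1G05340 and 1.31 for AT5G52750, and in polysomal RNA they were 1.41 and 1.18. Outside the stress group AT4G18280 had 1.46 in total and 1.84 in polysomal RNA, AT4G26460 had 1.15 and 0.69, and AT2G20920 had 1.08 and 0.99. AT3G05730 passed 2-fold in total RNA only, with 1.61, against 0.39 in polysomal RNA, and LEA18 in polysomal RNA only, with 1.05, against -0.05 in total RNA.

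Of single-gene members, AT1G71970 was lowest in hypoxia, with 373 in polysomal and 232 in total RNA, against 1691 in polysomal and 1004 in total RNA without stress. AT4G34630 was next in total RNA, with 253 in polysomal and 154 in total RNA in hypoxia, against 907 in polysomal and 545.5 in total RNA without stress. Their polysomal over total ratios were nevertheless nearly equal in the conditions, at 1.61 and 1.64 in hypoxia, against 1.68 and 1.66 without stress. SAPX had 945 in polysomal and 611 in total RNA in hypoxia, against 3081 in polysomal and 1746 in total RNA without stress. AT4G24830 for argininosuccinate synthase, an enzyme of arginine synthesis, had 420.1 in polysomal and 231.5 in total RNA in hypoxia, against 1101 in polysomal and 733 in total RNA without stress. AT1G12000, the beta subunit of the pyrophosphate-dependent phosphofructokinase of glycolysis, had log2 ratios of -1.29 in total and -1.26 in polysomal RNA.

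The other single-gene members among the 10 lowest in total RNA were AT3G52040 at -1.36, AT5G08180 at -1.34, AT1G28400 at -1.34, SCPL34 at -1.25 and 3xHMG-box2 at -1.22. In polysomal RNA they had -1.87, -1.36, -0.73, -1.24 and -1.23 in that order. All but AT1G28400 were thus 2-fold lower in both fractions. Chromatin, with 13 of the 150 members, contributed 5 of the 24 that were 2-fold lower in total RNA and 6 of the 26 in polysomal RNA. Over all members these shares were 16.0% and 17.3%, and over annotated probe sets 7.8% and 9.14%. The shared H3 probe sets were 3 of the chromatin members counted in either fraction. A shared H4 probe set, at -1.44, was also among those in polysomal RNA. Only AT4G34290 and 3xHMG-box2 were separate genes.

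Only 2 pairs of members were next to each other in the RefSeq gene order of assembly TAIR10.1. AT1G26740, an organellar ribosomal protein gene, and its neighbour AT1G26750 had ratios of 1.57 and 1.51 in hypoxia, against 2.02 and 1.70 without stress. AT1G28395 and AT1G28400 had 1.504 and 2.30 in hypoxia, against 2.20 and 1.51 without stress, so this pair was highest in different conditions.

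The 85 unannotated probe sets that met the ratio limits had a median ratio of 1.80 in hypoxia, with a range of 1.51 to 7.60, and 1.75 without stress, with a range of 1.502 to 5.36. Their median log2 ratio of hypoxia over non-stressed was -0.27 in total and -0.30 in polysomal RNA. In total RNA 7 were higher and 15 lower by 2-fold or more, and in polysomal RNA 4 were higher and 20 lower. Their functions are not described here.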

How the data were processed

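The authors deposited linear probe set intensities from 4 arrays, 1 per group, and the software that made them is not given in the sources used here. The mean between the 2nd and 98th percentiles was 499 to 500 on every array, so the deposited intensities had been scaled to a common level and show no change in overall mRNA. Per the file headers, the array of total RNA in hypoxia was scanned 2 times and the others 1 time. Values were used as deposited, with a floor of 140, a ratio limit of 1.5 and a 2-fold limit for counts, in Python 3.11.15 with pandas 2.3.3 and numpy 2.4.6, and plotted with matplotlib 3.10.9. The script was tested on simulated data.

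The platform annotation paired 13513 probe sets with 1 gene and 503 with several, and 8730 were not listed. Of the first, 13436 matched RefSeq (TAIR10.1, used for names and neighbours), and 77 did not and kept their name. Members, lists and role groups were chosen with earlier results of these data known. Keyword classes of the annotation text matched 4 members and 139 annotated probe sets, since few entries carry text, so roles and families came from general knowledge. Genes in the text are single-gene members with the 15 highest lower ratios, the 10 (total) and 5 (polysomal) largest hypoxia ratios each way, the 3 largest changes of association each way, class members and those nearest the limit; other genes were picked as examples of their role group or family after their values were seen. No sequence features were computed. Alternatives were quantile normalization, scaling on spiked controls or the median, other floors and ratio limits, and other choices of probe sets.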

Additional observations from a re-analysis of the deposited data

How the results depend on the processing

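No paired analysis was possible because each group had 1 array. The main values were 150 members, median log2 ratios of hypoxia over non-stressed of -0.25 in total and -0.31 in polysomal RNA, 13 members 2-fold higher and 24 lower in total RNA, and 9 higher and 26 lower in polysomal RNA. Scaling on spiked controls gave 375 members, of which 145 were among the 150, a total RNA median of 0.041, 35 higher in total RNA, 21 higher and 87 lower in polysomal RNA, a median change of association of -0.34 and 9 members in a keyword class. It shifted the median of the 6075 annotated probe sets by 0.30 in total RNA, -0.36 in polysomal RNA and 0.67 in the log2 polysomal over total ratio without stress. Quantile normalization kept 136 of the 150 and gave a total RNA median of -0.13. Scaling on the median gave 14 higher in polysomal RNA. A floor of 280 kept 103 members, with 7 higher and 12 lower in total RNA and 5 higher and 16 lower in polysomal RNA, and a floor of 70 gave 38 lower in total RNA. A ratio limit of 1.4 gave 253 members, a total RNA median of -0.12, 20 and 17 higher in total and polysomal RNA and 10 in a class. A limit of 2 left 8 members, with medians of -0.87 and -1.11, 0 higher, 3 lower in total and 5 lower in polysomal RNA and 0 in a class. Of the alternatives chosen after seeing the data, adding the unannotated probe sets gave 235 members, 20 higher and 39 lower in total and 46 lower in polysomal RNA, and adding the excluded classes gave a polysomal median of -0.43. Using 1 probe set a gene and none of the 13 paired with several genes left 137 members. Of these, 12 were higher and 20 lower in total RNA, and 8 higher and 21 lower in polysomal RNA. Leaving out the 7 probe sets of the types that may hybridise to several transcripts left 143, with 11 and 24 in total and 7 and 26 in polysomal RNA. Of 86 log2 ratios of named genes, 4 changed sign under quantile normalization, 8 under scaling on spiked controls and 3 under scaling on the median, and 0 of these had been past 2-fold. Within 0.1 of their main value were 54 under quantile normalization and all 86 under scaling on the median, while none was under scaling on spiked controls. The cause of these shifts was not tested. With 1 array per group, the number of arrays limits the precision.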
